A study of Homo sapiens with 7 samples.

Results

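The 2 libraries named for guide 5, 1 of 2 CRISPR guide RNAs against ZFP36L2, were set against the 3 libraries of the non-targeting guide sgRosa, out of 7 libraries in all. The libraries were found by the names of the deposited columns, which call the ZFP36L2 guides 3 and 5. The labels number the guides 1 and 2, and nothing in the files pairs these numbers with the column names, so the column names are kept. All 7 libraries are poly(A) RNA of MOLM13, an established human acute myeloid leukemia line, taken 6 days after transduction. Control cells carried sgRosa alone, guide 5 cells a guide against ZFP36L2, and the 2 guide 3 libraries, used to show where guide 5 differs, the other guide against the same gene. The labels name no clone and leave the origin of the replicates unstated, so p-values measure the spread between these libraries, which may be technical.

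ZFP36L2 belongs to a family of zinc finger proteins that bind AU-rich elements in mRNA and recruit the decay machinery. ATF4 is the transcription factor of the integrated stress response. Kinases that sense lack of amino acids, unfolded protein, double-stranded RNA or lack of heme phosphorylate the translation factor eIF2 alpha, which raises translation of ATF4, and ATF4 then switches on genes that make, import and load amino acids. Interferons act through JAK kinases and transcription factors such as STAT2 and IRF9 on genes with an interferon-stimulated response element, whose products block viruses and present antigen. In myeloid cells, S100A8, S100A9, CD14 and FCN1 mark the monocyte and neutrophil lineages.

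Values are FPKM, reads scaled by gene length and library size, as deposited. The length used is the whole gene span with its introns. Changes are on the scale of log2(FPKM + 0.5), given ± SE, and this scale understates changes of low genes. The 6783 of 11408 genes that reached 1 FPKM in 2 or more libraries were tested with limma, and a gene is called risen, fallen, higher or lower where the Benjamini-Hochberg adjusted p over all tested genes is below 0.05. Assigned reads, recovered from the values, ranged from 16907955 to 25164359 in the controls and were 36556997 and 28088053 in guide 5 replicates 1 and 2. Markers of other blood lineages and tissues were few: 1 of 8 T cell markers, 0 of 7 B cell markers, 2 of 7 NK cell markers, 1 of 10 erythroid and megakaryocyte markers and 2 of 10 epithelial and fibroblast markers had a value here. The NK cell markers summed to 18.1 to 35.1 FPKM in the controls and to 65.2 to 82.3 with guide 5. The T cell marker, CD3D, fell from 3.60 to 4.88 FPKM to 1.76 to 2.10, and the erythroid and megakaryocyte marker rose from 2.40 to 2.73 FPKM to 3.98 to 4.64. The part of these markers in the results was not tested. The 13 leukemia cell markers with a value sum to 754 to 1290 FPKM in the controls and to 1830 to 1950 with guide 5. Of the 12 tested, CD38, SPI1 and LYZ rose with guide 5, MPO fell and 8 did not pass. Their median change was 0.19, so the sum does not describe most members. Among all tested genes 12.4% rose and 7.42% fell. Changes also moved with GC content: in the tenth of tested genes with the most GC 24.4% rose and 0.147% fell with guide 5, and in the tenth with the least GC 2.65% rose and 16.2% fell.

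ZFP36L2 mRNA (chr2:43222402-43226609, GRCh38, GENCODE 29) was not lower in the guide 5 libraries. It stood at 80.2, 79.3 and 73.9 FPKM in control replicates 1 to 3 and at 174 and 164 with guide 5. Both guide 5 libraries lay above every control, with a change of 1.12 ± 0.20 (adjusted p = 0.0035). The rise was shared with guide 3: guide 5 minus guide 3 was -0.80, which was not called. The authors' deposited log2 fold changes were 1.12 with guide 5 and 1.92 with guide 3. Its mRNA level does not show whether the protein was lost, so directions below are those of the libraries named for guide 5. The paralog ZFP36, also an mRNA decay factor, rose from 27.9, 44.7 and 33.2 to 88.2 and 78.1 FPKM (1.25 ± 0.23, adjusted p = 0.0047). ZFP36L1, the other paralog, rose from 0.0245, 0.101 and 0.0279 to 1.09 and 1.12 FPKM (1.55 ± 0.12, adjusted p = 1.4e-05). The authors' log2 fold changes with guide 5 and guide 3 were 1.24 and 1.56 for ZFP36, and 4.42 and 4.30 for ZFP36L1. The rises of ZFP36L2 and ZFP36 no longer passed without guide 5 replicate 1.

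Against control, interferon-stimulated, monocyte, inflammatory and ATF4 genes stood among the genes with the highest rises with guide 5, and chaperone genes among those with the deepest falls. In all, 841 of 6783 tested genes rose (12.4%) and 503 fell (7.42%). The 12 highest changes were those of IFI6, CD14, CCL2, SIGLEC1, IFIT2, DDIT4, IFI27, IFIT3, CHAC1, NUPR1, ACP5 and APOE, from 5.77 ± 0.19 for IFI6 to 3.63 ± 0.19 for APOE. IFI6, an interferon-induced mitochondrial protein, went from 0.298, 0.197 and 0.346 FPKM in the controls to 49.1 and 35.7 with guide 5. CCL2, a monocyte chemokine, went from 0.169, 0.122 and 0.363 to 13.2 and 14.2 FPKM. For these 2 genes the lowest guide 5 library lay far above the highest control. Both rises were shared with guide 3: the authors' log2 fold changes with guide 5 and guide 3 were 7.23 and 6.73 for IFI6 and 5.92 and 6.03 for CCL2. Of the 12 genes, DDIT4 and CHAC1 were also called higher than with guide 3.

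The 12 lowest changes were those of NOL5BP, SHISA2, EIF4BP7, HSPH1, HSPE1, RP11-248J18.3, CHML, HSPA8, IGSF10, CCNA1, MT1H and BAG2, from -2.08 ± 0.23 for NOL5BP to -1.38 ± 0.20 for BAG2. SHISA2, which holds back receptor maturation in the WNT and FGF pathways, fell from 5.80, 5.46 and 4.07 FPKM to 1.07 and 0.772. CCNA1, a cyclin of germ cells and leukemia cells, fell from 16.9, 26.7 and 18.7 FPKM to 7.04 and 7.68. The authors' log2 fold changes with guide 5 and guide 3 were -2.47 and -3.35 for SHISA2 and -1.50 and -1.20 for CCNA1. Of the 12 genes, NOL5BP was also called lower than with guide 3. CHML overlaps OPN3 on the same strand, and RP11-248J18.3 overlaps NIN, so their reads could not be fully told apart.

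The counts rested on single libraries, and a group left with 1 library is then assumed to vary like the others. Genes that rose numbered 325 and 471 without guide 5 replicates 1 and 2, and 560 without control replicate 1. Genes that fell numbered 28 and 55 without guide 5 replicates 1 and 2, 173, 804 and 998 without control replicates 1 to 3, and 179 and 181 without guide 3 replicates 1 and 2, which enter the estimate of the spread. Scaling moved the split of rises and falls to 912 and 1031 with quantile normalization, 854 and 996 with a common sum of FPKM and 935 and 1142 with the GC and length correction.

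Among the genes that differed between the guides, 14 of 41 tested members of the ATF4 and amino acid stress list were higher with guide 5, and 4 of 30 tested monocyte genes (S100A8, S100A9, S100A12 and FCN1) were lower. In the direct comparison of guide 5 with guide 3, 31 of 6783 tested genes were higher with guide 5 (0.457%) and 19 were lower (0.280%). The balance turned elsewhere: at an unadjusted p below 0.05, 197 were higher and 577 lower, with the compared groups alone 247 and 620 were called, and with library weights 333 and 895. Of all tested genes 59.3% had a negative and 40.7% a positive difference from guide 3, against which the signs within lists below are to be read. Of the 31 higher genes 14 belong to the ATF4 list, which has 41 tested members. All lists were written with earlier results of these data known, so counts of their members are descriptions. Against both control and guide 3, 28 genes were higher with guide 5 (0.413%) and 1, NOL5BP, was lower (0.0147%). The comparisons with control and with guide 3 share the guide 5 libraries, so the last counts are a description. In the plot of the difference against the mean level, DDIT4, STC2, CHAC1 and ADM2 stood highest, and S100A9, S100A12 and S100A8 lowest.

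**Figure D1:**
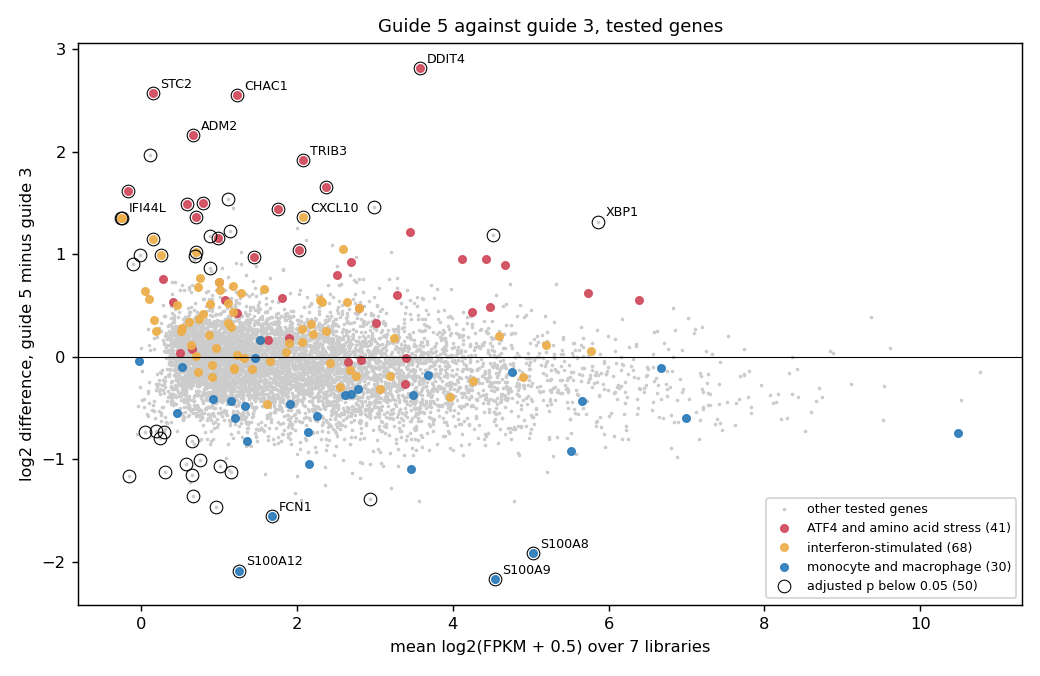
Each point is 1 of 6783 tested genes, with its mean log2(FPKM + 0.5) over 7 libraries on the horizontal axis and the log2 difference between guide 5 and guide 3 on the vertical axis. Colors mark 3 gene lists and rings the 50 genes past the threshold, of which 31 lie above 0, 14 of them in the ATF4 list.

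Without guide 5 replicates 1 and 2, 4 and 5 genes were higher and 9 and 2 lower than with guide 3. Without guide 3 replicates 1 and 2, 15 and 13 were higher and 5 and 6 lower, and without control replicate 1, 11 were lower. Without control replicate 2, 88 were higher and 128 lower. Against both control and guide 3, 4, 5, 15 and 13 genes were higher without guide 5 replicates 1 and 2 and guide 3 replicates 1 and 2, and 63 without control replicate 2. With a common sum of FPKM the median difference between the guides over all tested genes was 0.13 in place of -0.07, and the medians given below for lists against guide 3 kept their sign. Of the 50 genes 13 were called under every alternative that gave them a value: CTH, IFI44L, IFI44, STC2, VLDLR, PSAT1, DDIT4, CHAC1, GPT2, CTD-2529O21.1, TRIB3 and ADM2 on the higher side and S100A12 on the lower. Only PSAT1, DDIT4, CHAC1, TRIB3 and S100A12 of these were tested with a guide 5 library left out. The others reached 1 FPKM in the guide 5 libraries alone, so leaving out either one removed them from the test.

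Of the 50 ATF4 and amino acid stress genes with a value, 41 were tested. Of these, 30 rose against control and 3 fell, with a median change of 1.19 against -0.05 over all tested genes, of which 12.4% rose and 7.42% fell. Because 10 of the 41 were below 1 FPKM in every control and were tested through the guide libraries, 6 of them through guide 5 alone, these counts describe the tested members only. On recovered reads of all 11408 genes with no filter (limma voom, added after the data were examined), 38 of all 50 rose and 3 fell, where 12.7% of all genes rose, and 18 of 50 were higher than with guide 3, where 0.447% of all genes were. The list's median difference from guide 3 was 0.76 among tested members, against -0.07 over all tested genes, and 37 of 41 differences were positive, where 40.7% of all were. With a correction for GC content and transcript length the median was 0.81 and 20 members were higher. The list was written with earlier results of these data known, so its shares beside those of all genes are a description. Without guide 5 replicates 1 and 2, 4 members each were higher than with guide 3, without guide 3 replicates 1 and 2, 9 each, and without control replicate 2, 23. Without guide 5 replicates 1 and 2, 16 and 18 members rose against control.

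Among the regulators and stress targets, all 15 tested members rose against control and 7 were higher than with guide 3. Among all tested genes 12.4% rose and 0.457% were higher. Of the 15, 6 were below 1 FPKM in every control, and 3 were tested through guide 5 alone. With no filter, 19 of 19 rose by voom and 9 were higher than with guide 3. DDIT4, an inhibitor of the growth kinase complex mTORC1 (chr10:72273920-72276036), stood at 4.49, 2.36 and 5.15 FPKM in the controls, 7.61 and 10.9 with guide 3 and 71.3 and 63.1 with guide 5. The guide 5 libraries were apart from all others, with 3.97 ± 0.29 against control (adjusted p = 8.4e-06) and 2.81 ± 0.31 against guide 3 (adjusted p = 0.0018). CHAC1, an enzyme that breaks down glutathione (chr15:40952962-40956519), stood at 0.502, 0.290 and 0.369 FPKM in the controls, 1.13 and 1.97 with guide 3 and 12.9 and 9.75 with guide 5. Its change was 3.73 ± 0.21 against control (adjusted p = 2e-06) and 2.55 ± 0.23 against guide 3 (adjusted p = 0.00093).

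STC2, a secreted glycoprotein, rose from at most 0.110 FPKM in the controls to 4.12 and 3.78, while guide 3 libraries held 0.266 and 0.235. ADM2, a peptide hormone, rose from at most 0.332 to 6.69 and 4.52 FPKM, with 0.749 and 0.947 with guide 3. TRIB3, a pseudokinase that restrains ATF4 and AKT signalling, stood at 12.5 and 11.1 FPKM with guide 5, above 2.41 and 3.15 with guide 3 and 1.42 to 2.30 in the controls. SESN2, a leucine sensor, stood at 4.37 and 3.53 FPKM with guide 5, 1.38 and 1.59 with guide 3 and 0.576 to 0.725 in the controls. VLDLR, a lipoprotein receptor, was also called in both comparisons.

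Of the transcription factors of the pathway, ATF4, DDIT3 and CEBPB were not called between the guides. ATF3, untested for low FPKM, was higher than with guide 3 by voom and is given below. ATF4 itself stood at 61.8, 83.6 and 67.9 FPKM in the controls, 78.8 and 76.0 with guide 3 and 115 and 114 with guide 5. It rose against control by 0.69 ± 0.20 (adjusted p = 0.039), a call lost when any library other than control replicate 2 was left out, and its difference from guide 3 was 0.56 ± 0.22 (adjusted p = 0.38). DDIT3, the stress factor CHOP, rose from 1.29, 2.72 and 1.96 to 4.83 and 5.09 FPKM (1.17 ± 0.24, adjusted p = 0.0079), beside 4.91 and 3.79 with guide 3. CEBPB, a factor of myeloid differentiation as well as of stress, rose to 22.1 and 17.5 FPKM beside 24.3 and 23.3 with guide 3. The authors' log2 fold changes for CEBPB were 2.45 with guide 5 and 2.72 with guide 3. For CEBPB, NUPR1, PPP1R15A, DDIT3 and ATF5 the difference between the guides did not pass (adjusted p = 0.76, 0.20, 0.46, 0.80 and 0.99), which does not show that they were alike.

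**Figure D2:**
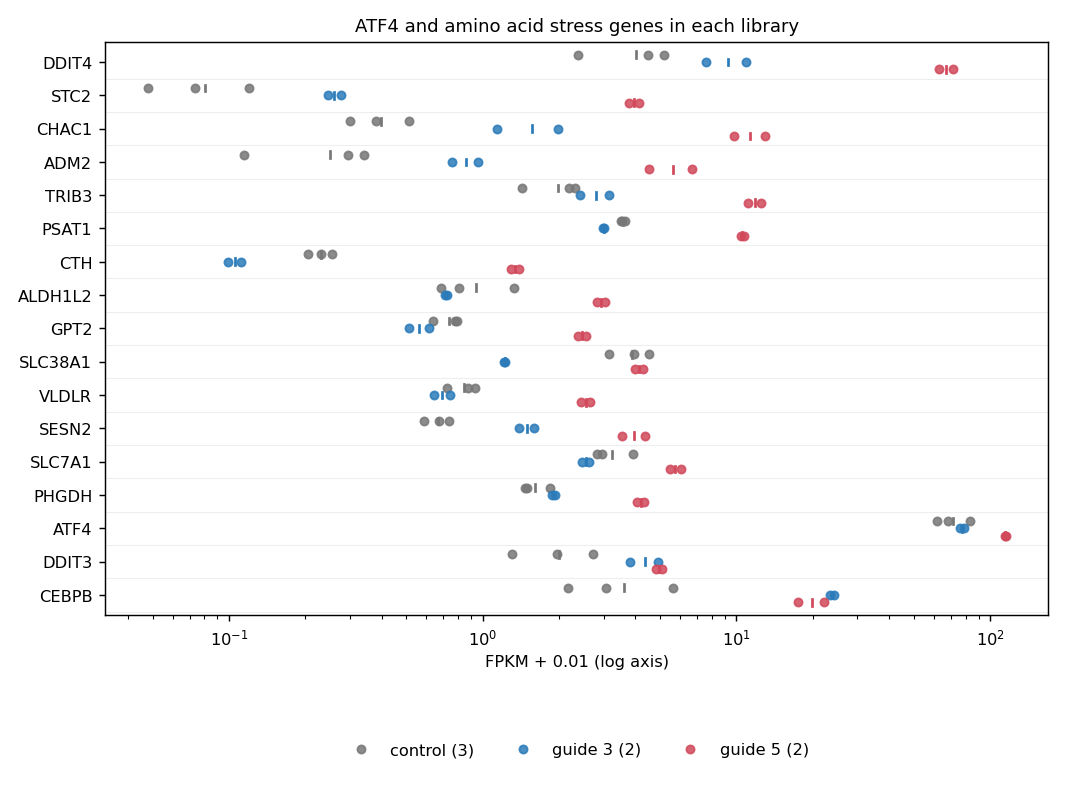
FPKM + 0.01 on a log axis for the 14 ATF4 list members higher with guide 5 than with guide 3, followed by ATF4, DDIT3 and CEBPB. Each point is 1 library, colored by group, and short lines are group means. The guide 5 points lie to the right of both other groups for 13 of the 14 members, and SLC38A1 lies among its controls. The 14 were chosen as higher than with guide 3, so their place beside guide 3 follows from the choice. Of all tested genes 52.8% had no overlap between guide 5 and control libraries.

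Among the enzymes of amino acid and one-carbon synthesis, 8 of 13 tested members rose, 2 fell and 5 were higher than with guide 3. The shares over all tested genes were 12.4%, 7.42% and 0.457%. Of the 13, 3 were tested through guide 5 alone. With no filter, 10 of 15 rose by voom, 2 fell and 5 were higher than with guide 3. PSAT1, the aminotransferase of serine synthesis, stood at 3.64, 3.50 and 3.52 FPKM in the controls, 2.98 and 3.01 with guide 3 and 10.4 and 10.7 with guide 5. Its difference from guide 3 was 1.66 ± 0.17 (adjusted p = 0.0012). PHGDH, the first enzyme of that pathway, stood at 4.33 and 4.05 FPKM with guide 5 and at 1.46 to 1.92 in the other 5 libraries, with 0.97 ± 0.17 against guide 3 (adjusted p = 0.037). The difference of PHGDH was not called without either library of either guide, or without control replicate 1.

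CTH, which makes cysteine from cystathionine, stood at 1.28 and 1.38 FPKM with guide 5, 0.102 and 0.0895 with guide 3 and 0.194 to 0.245 in the controls. ALDH1L2, a mitochondrial folate enzyme, and GPT2, a mitochondrial alanine aminotransferase, were higher than with guide 3 by 1.5 ± 0.21 and 1.49 ± 0.15. MTHFD2, the folate enzyme of mitochondria that provides one-carbon units, rose from 14.1, 11.7 and 11.7 to 28.8 and 30.3 FPKM (1.21 ± 0.18), and its difference from guide 3 just missed the threshold (0.95 ± 0.20, adjusted p = 0.069). ALDH18A1, an enzyme of proline synthesis, fell by 0.49.

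Among amino acid transporters 6 of 10 tested members rose against control and 2, SLC38A1 and SLC7A1, were higher than with guide 3. All 10 differences from guide 3 were positive. Among all tested genes 12.4% rose, 0.457% were higher and 40.7% of differences were positive. With no filter, 8 of 11 transporters rose by voom and 4 were higher than with guide 3. SLC7A5, the large neutral amino acid carrier, rose from 6.03, 5.40 and 7.85 to 26.2 and 20.4 FPKM (1.78 ± 0.22), with 8.48 and 11 with guide 3 (difference 1.22 ± 0.24, adjusted p = 0.054). SLC7A11, the cystine carrier, rose from at most 0.278 to 1.74 and 1.93 FPKM, with 1.09 and 0.703 with guide 3. SLC38A1, a glutamine carrier, stood at 3.98 and 4.29 FPKM with guide 5 beside 3.94, 4.53 and 3.14 in the controls, and at 1.22 and 1.20 with guide 3. The gap for SLC38A1 thus lay in low guide 3 libraries. Of the kinases of eIF2 alpha, EIF2AK2 (PKR, also interferon-induced) rose by 1.42 ± 0.23, and EIF2AK1 had -0.31 ± 0.25 (adjusted p = 0.39). EIF2AK3 and EIF2AK4, the sensors of unfolded protein and of uncharged tRNA, were untested for low FPKM and had voom changes of -0.26 ± 0.23 and -0.58 ± 0.20 (adjusted p = 0.43 and 0.058). EIF2S1, which encodes eIF2 alpha itself, fell by 0.76.

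The filter on FPKM left out 9 of the 50 genes, among them ones with few reads or long spans. On recovered reads without a filter, INHBE, an inhibin subunit, had 0, 0 and 1 reads in the controls, 5 and 19 with guide 3 and 252 and 222 with guide 5. Its summed level with guide 5 was 458-fold that of the controls (95% counting interval 81.9 to 18100). SLC6A9, a glycine carrier, had 5, 6 and 10 reads in the controls, 28 and 33 with guide 3 and 573 and 341 with guide 5, a difference from guide 3 of 3.95 ± 0.37 on the log2 scale of voom (adjusted p = 0.00022). ATF3, a stress-induced factor, was higher than with guide 3 by 1.80 ± 0.34 (adjusted p = 0.031). ASNS, asparagine synthetase, did not pass, with a difference of 2.19 ± 0.51 (adjusted p = 0.088), and GDF15 had 41 and 82 reads with guide 3 and 90 and 73 with guide 5. The counting interval covers counting error only. In the authors' deposited table, ASNS had a log2 fold change of 2.33 with guide 5 (false discovery rate 0.0065) and of 0.13 with guide 3 (false discovery rate 0.86).

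The letters of an ATF4 site were looked for in promoters from RefSeq (GRCh38.p14), in the 250 bases before each start. The C/EBP-ATF response element was searched as TGATGNAA on both strands, TTNCATCA on the other. It was found in 1104 of 35116 promoters (3.14%), in 1 of the 24 promoters matched to the 30 risen members, and in 1 of 7 promoters matched to the 11 other tested members. The share of all promoters counts every entry, while the lists count 1 entry per gene symbol. The 1 match among risen members is shown because CHAC1 is among the genes with the widest gap between the guides. It starts 209 bases before the start, on the other strand, at chr15:40953246-40953285, gene strand +, with the match in capitals.
CHAC1: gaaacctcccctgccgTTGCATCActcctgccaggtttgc
A match is a description of letters, and its absence in this window says nothing of the factor.

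Genes that act beside ATF4 gave a mixed picture. Of 21 tested members of a list of aminoacyl-tRNA synthetases, which load amino acids on tRNA (the tRNA exporter XPOT included), 5 rose and 0 fell against control, with a median of -0.01. Among all tested genes 12.4% rose and 7.42% fell. WARS, for tryptophan and also interferon-induced, rose from 3.42, 5.60 and 3.87 to 12.4 and 12.4 FPKM (1.45 ± 0.21, adjusted p = 0.001). CARS, SARS, MARS and AARS rose by 0.87, 0.86, 0.84 and 0.63. Against guide 3, 15 of 21 differences were positive with a median of 0.58, where 40.7% of all tested genes were positive. The list's median for guide 3 minus control was -0.37, so the gap lay more in lower guide 3 libraries than in rises with guide 5. Between the guides limma on FPKM called 0 (12 at an unadjusted p below 0.05) and voom on all genes 0. With the correction for GC content and length limma called 10. GARS, the glycine enzyme, had the highest difference, with 12 and 13.7 FPKM beside 6.38 and 5.80 with guide 3 (1.02, adjusted p = 0.17). The authors' log2 fold changes for GARS were 0.53 with guide 5 and -0.55 with guide 3.

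Most tested cytosolic chaperones fell. Of 15 tested cytosolic and mitochondrial chaperones, 9 fell and 1, the mitochondrial protease LONP1, rose against control, with a median of -0.65. Of all tested genes 7.42% fell and 12.4% rose. HSPE1, the mitochondrial co-chaperone of HSPD1, stood at 24.4, 19.2 and 21.2 FPKM in the controls, 13.3 and 12.2 with guide 3 and 6.91 and 6.83 with guide 5 (-1.58 ± 0.18 against control, adjusted p = 0.00018). HSPH1, a nucleotide exchange factor of HSP70, stood at 34.7, 51.3 and 29.5, 17.7 and 16.3, and 11.1 and 12.6 FPKM in the same groups. HSPA8, the constitutive HSP70, fell from 380, 685 and 407 to 151 and 188 FPKM, with 270 and 244 with guide 3, a call that was lost without guide 5 replicate 1.

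All guide 5 libraries lay below all others for these 3 genes, yet limma called 0 of the 15 against guide 3 (5 lower at an unadjusted p below 0.05), as did voom on all genes. The adjusted p was 0.11 for HSPE1, 0.48 for HSPH1 and 0.47 for HSPA8, and 12 of 15 differences were negative, where 59.3% of all tested genes were. HSP90AA1, DNAJA1, HSPD1 and HSP90AB1 fell by 1.36, 1.29, 1.01 and 0.85 against control. In the endoplasmic reticulum, 4 of 15 tested chaperones and folding enzymes fell, among them HSP90B1 (-0.84) and PDIA3 (-0.76), and 0 rose. The shares over all tested genes were 7.42% that fell and 12.4% that rose. XBP1, a transcription factor of the unfolded protein response, stood at 73.2 and 83.8 FPKM with guide 5, at 78.1, 67.0 and 69.3 in the controls and at 31.1 and 31.2 with guide 3 (1.32 ± 0.20 against guide 3, adjusted p = 0.014). Guide 5 overlapped the controls for XBP1, and guide 3 lay below both.

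Interferon-stimulated genes rose with guide 5 from near 0 in many cases, and 6 of them stood higher than with guide 3. Of 90 with a value, 68 were tested, of which 47 rose, 0 fell and 21 did not pass against control, with a median of 1.30. Among all tested genes 12.4% rose and 7.42% fell. Of the 68, 29 were below 1 FPKM in every control, and 4 of the 68 were tested through guide 5 alone. With no filter, by voom on reads, 68 of all 90 rose and 0 fell, where 12.7% of all genes rose. Against guide 3, limma called 6 higher and 0 lower, and 50 of 68 differences were positive with a median of 0.26. Among all tested genes 0.457% were higher, and 40.7% of differences were positive. By voom on all genes 5 of 90 were higher, where 0.447% of all genes were. Without guide 5 replicates 1 and 2, 0 and 1 were called higher than with guide 3, and without guide 3 replicate 2, 3.

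Members of receptor and signalling role gave 8 rises in 14, and with no filter 10 of 16 rose by voom. For this and the roles below, 12.4% of all tested genes rose and 0.457% were higher than with guide 3. STAT2, a transcription factor of the response, rose from 2.53, 2.5 and 2.42 to 7.77 and 8.44 FPKM (1.53 ± 0.16). The receptor chains IFNAR1 and IFNAR2 had changes of -0.04 ± 0.20 and -0.07 ± 0.14 (adjusted p = 0.89 and 0.75). IRF7, the factor that amplifies interferon production, rose from 1.43, 0.746 and 2.60 to 12.2 and 9.37 FPKM (2.52 ± 0.32), beside 10.9 and 11.5 with guide 3. IRF9, the partner of STAT2, was not tested for low FPKM and rose by voom on reads (1.78 ± 0.41, adjusted p = 0.0089). No interferon gene had a value here. Antiviral effectors gave 18 rises in 26, with a median of 1.96, and 2 of them, IFITM1 and OAS2, were higher than with guide 3. Of the 26, 16 were below 1 FPKM in every control, and with no filter 25 of 34 rose by voom. The ISG15 system rose in all 3 tested members, of which 1 was below 1 FPKM in every control. ISG15, a ubiquitin-like modifier, stood at 8.26, 1.88 and 11 FPKM in the controls and at 83.3 and 60.8 with guide 5 (3.53 ± 0.53, adjusted p = 0.0012), beside 63.0 and 60.9 with guide 3.

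The 6 members higher than with guide 3 were CXCL10, IFI44L, IFI44, IFITM1, OAS2 and LGALS3BP. CXCL10, a chemokine for T cells, stood at 3.36, 2.75 and 2.26 FPKM in the controls, 3.21 and 2.24 with guide 3 and 7.14 and 8.26 with guide 5. It was 1.36 ± 0.23 higher than with guide 3 (adjusted p = 0.023), and guide 3 libraries overlapped the controls. The call was lost without any 1 library of guide 3 or guide 5. CXCL11, its neighbor in function, was not tested for low FPKM, and had 10, 6 and 4 reads in the controls, 21 and 21 with guide 3 and 108 and 126 with guide 5 (2.53 ± 0.47 on the voom scale, adjusted p = 0.029).

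IFI44L and IFI44, adjacent interferon-induced genes on chr1, stood at 1.33 and 1.58 and at 1.31 and 1.63 FPKM with guide 5. Guide 3 libraries held 0.333 and 0.199 FPKM of IFI44L and 0.333 and 0.212 of IFI44, and the controls at most 0.00860 of either. The differences from guide 3 were 1.36 ± 0.13 and 1.35 ± 0.13 (adjusted p = 0.00093 for each). OAS2, a sensor that makes the activator of RNase L, stood at 4.81 and 5.09 FPKM beside 2.76 and 1.71 with guide 3. Its call (1.02 ± 0.19, adjusted p = 0.04) was lost under 12 of 20 alternatives, among them without either guide 5 library, guide 3 replicate 2, control replicate 1 or control replicate 3.

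IFITM1, a membrane protein that blocks virus entry, had 3 reads in the controls together and 284 with guide 5, which is 91.5-fold by summed level (95% counting interval 31.0 to 446). It overlaps IFITM2 on the same strand, so their reads could be split wrongly. LGALS3BP, a secreted glycoprotein, stood at 2.93 and 2.26 FPKM beside 1.13 and 0.967 with guide 3 (0.99 ± 0.15, adjusted p = 0.011). It was not called without guide 5 replicate 1 or without either guide 3 library. IFI6, SIGLEC1, IFIT2, IFI27 and IFIT3, with the highest rises of the list, had differences of 0.48, 0.16, 0.66, 0.44 and 0.62 from guide 3 that did not pass.

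**Figure D3:**
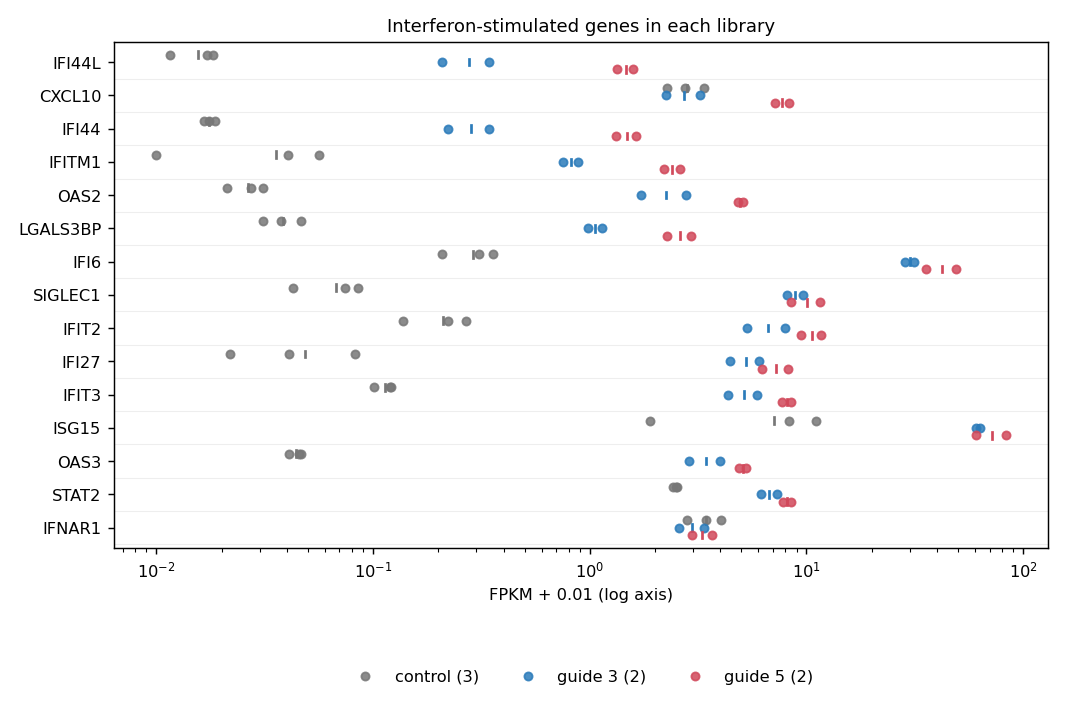
FPKM + 0.01 on a log axis for the 6 interferon-stimulated genes higher with guide 5 than with guide 3, the highest further rises, STAT2 and IFNAR1. Each point is 1 library and short lines are group means. Guide 5 points lie right of guide 3 points for the first 6 genes, which follows from how these 6 were chosen, and all groups overlap for IFNAR1.

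The interferon-stimulated response element was searched as GAAA, any 2 bases and GAAA on both strands (TTTC, 2 bases and TTTC on the other), with overlapping matches counted once per promoter. It was found in 1061 of 35116 promoters (3.02%), in 17 of 37 promoters matched to the 47 risen members (45.9%) and in 3 of 12 promoters matched to the 21 other tested members (25%). All 5 promoters matched to the 6 members higher than with guide 3 held it. These 5 are shown with up to 16 bases on each side of the match, which is in capitals, cut at the start of the gene. They lie at chr4:76023693-76023734 (CXCL10, gene strand -), chr1:78620268-78620309 (IFI44L, +), chr1:78649755-78649788 (IFI44, +), chr11:313984-314025 (IFITM1, +) and chr17:78979956-78979997 (LGALS3BP, -), each written along the gene's strand.
CXCL10: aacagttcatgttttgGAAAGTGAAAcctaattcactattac
IFI44L: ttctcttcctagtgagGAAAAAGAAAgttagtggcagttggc
IFI44: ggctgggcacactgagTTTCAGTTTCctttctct
IFITM1: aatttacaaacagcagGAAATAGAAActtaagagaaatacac
LGALS3BP: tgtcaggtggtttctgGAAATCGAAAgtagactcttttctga
The first 3 of the matches shown lie far apart in distance from the start, at 221, 164 and 18 bases before it, and the last 2 at 40 and 58. IFI44L held a second match with the same flanks, 73 bases before its start.

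Most tested monocyte genes rose with guide 5, and 4 of them were lower than with guide 3. Of 36 monocyte and macrophage genes with a value, 30 were tested, 22 of which rose and 0 fell against control, with a median of 1.31, and 9 of the 30 were below 1 FPKM in every control. The shares over all tested genes, for this list and the granulocyte genes below, were 12.4% that rose and 7.42% that fell. With no filter, 29 of 36 rose. Against guide 3, 4 were lower, 0 were higher and 29 of 30 differences were negative (59.3% of all tested genes), with a median of -0.47. Without guide 5 replicate 2, 1 member was called lower, and without control replicate 2, 8. Mature granulocyte genes had 7 rises in 10 tested, and all 10 differences from guide 3 were negative, of which limma called 0 (5 at an unadjusted p below 0.05) and voom 0. Of these 10, 5 were below 1 FPKM in every control and were tested through the guide libraries. With no filter, 8 of 11 rose by voom. The granulocyte median difference from guide 3 was -0.51, and -0.24 with the GC and length correction. For the monocyte list that correction gave -0.45.

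S100A9, which forms calprotectin with S100A8, stood at 5.27, 3.74 and 5.42 FPKM in the controls, 172 and 133 with guide 3 and 37.1 and 29.8 with guide 5. Guide 5 lay between the other groups without overlap, with 2.68 ± 0.22 against control (adjusted p = 2e-05) and -2.17 ± 0.24 against guide 3 (adjusted p = 0.0018). S100A8 stood at 6.49, 7.0 and 6.59, 229 and 167, and 54.4 and 48.8 FPKM in the same groups (-1.91 ± 0.22 against guide 3, adjusted p = 0.0018). S100A12, another S100 protein of the cluster on chr1, had 1, 0 and 3 reads in the controls and stood at 3.67 and 2.54 FPKM beside 17.7 and 12.1 with guide 3.

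FCN1, a monocyte lectin of the complement system, stood at 6.31 and 5.96 FPKM with guide 5, 21.1 and 17.1 with guide 3 and at most 0.117 in the controls (-1.56 ± 0.18 against guide 3, adjusted p = 0.0021). The calls of S100A8, S100A9 and FCN1 against guide 3 were lost without guide 5 replicate 2. CD14, the coreceptor for bacterial lipopolysaccharide, went from 0.739, 0.261 and 1.16 FPKM to 45.8 and 35.5 with guide 5, beside 91.8 and 81.1 with guide 3 (-1.09 ± 0.32, adjusted p = 0.23). Fewer cells of a kind and less RNA per cell cannot be told apart in such bulk libraries.

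With the GC and length correction, 10 of the 19 genes lower than with guide 3 were still called. Of the 19 genes, 18 were above control with both guides, and NOL5BP, a pseudogene, was below control with both. With quantile normalization DES, SLC9A7P1 and NFAM1 of these 18 had changes of -0.03, -0.06 and -0.0023 from control with guide 5 in place of rises. Beside the S100 genes and FCN1 they include HK3, a hexokinase of myeloid cells, with 1.78 and 1.62 FPKM beside 5.51 and 4.81 with guide 3, and MMP25, a membrane metalloprotease of neutrophils, with 2.32 and 1.92 beside 4.85 and 5.12. RNASE1, a secreted ribonuclease, FBP1, a gluconeogenesis enzyme, and LGALS3, a galectin of macrophages, had differences of -1.46 ± 0.22, -1.01 ± 0.15 and -1.04 ± 0.15. SIGLEC9 and LILRB3, inhibitory receptors of myeloid cells, had differences of -0.73 ± 0.13 and -0.72 ± 0.13. These receptors were called under 9 and 7 of 20 alternatives, and their calls were lost without either library of either guide or without control replicate 1, and that of LILRB3 also without control replicate 3.

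**Figure D4:**
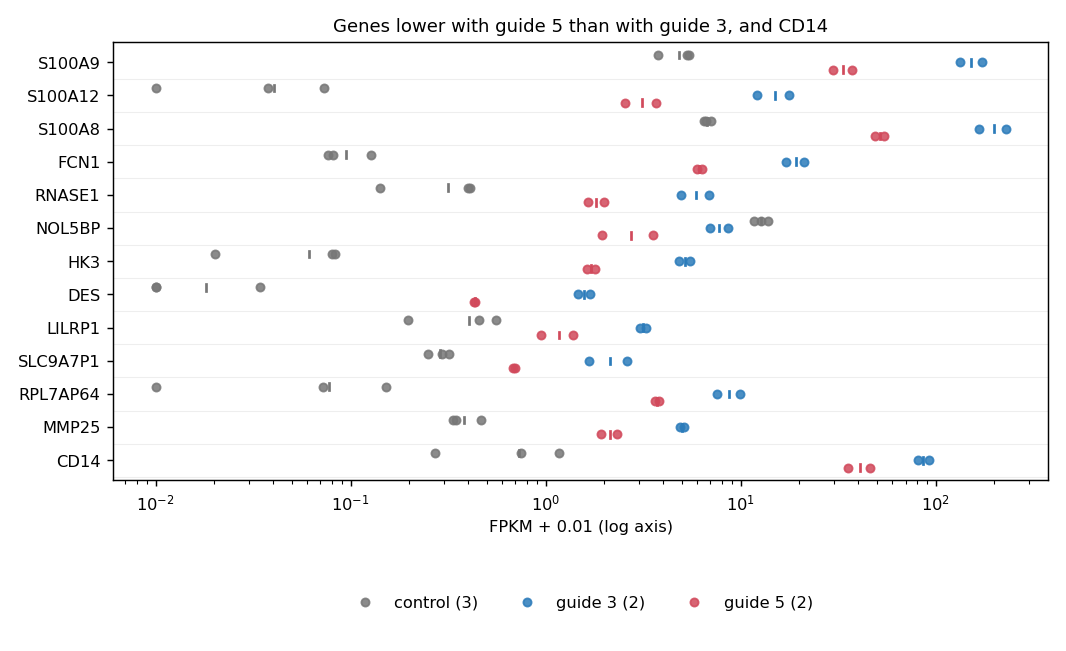
FPKM + 0.01 on a log axis for the 12 genes with the lowest differences between guide 5 and guide 3, followed by CD14. Each point is 1 library and short lines are group means. Guide 5 points lie between control and guide 3 points for 12 of the 13 genes, and for NOL5BP they lie below both. The 12 genes before CD14 were chosen as lower than with guide 3, so their place beside guide 3 follows from the choice. Of all tested genes 52.8% had no overlap between guide 5 and control libraries.

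Some genes higher with guide 5 than with guide 3 belong to none of the ATF4 and interferon lists. VEGFA, an angiogenic growth factor with AU-rich elements, stood at 2.76, 5.08 and 2.51 FPKM in the controls, 7.79 and 7.77 with guide 3 and 23.0 and 21.5 with guide 5 (1.46 ± 0.28 against guide 3, adjusted p = 0.048). PIM1, a growth-promoting kinase, stood at 13.4, 13.6 and 13.7, 18.8 and 24.2, and 51.1 and 47.4 FPKM in the same groups (1.19 ± 0.20, adjusted p = 0.026). G0S2, an inhibitor of triglyceride breakdown, had 0 reads in every control and 121 in all with guide 5, at least 39.0-fold higher than a floor of 3 reads over the 3 controls. It stood at 0.756 and 0.594 FPKM with guide 3 and at 2.13 and 1.56 with guide 5 (0.99 ± 0.15 between the guides, adjusted p = 0.011).

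NOG, which binds and blocks BMP ligands, stood at 2.45 and 2.03 FPKM with guide 5 among its controls at 1.97 to 3.31, and at 0.564 and 0.774 with guide 3. TUBE1, a tubulin of centrioles, stood at 3.23 and 3.53 FPKM, above 1.12 to 2.0 in the controls and 0.867 and 0.804 with guide 3. ENPP2, which makes lysophosphatidic acid, ALOX12, a lipoxygenase, and JAG1, a NOTCH ligand, were higher by 1.17, 0.91 and 0.87. The calls of VEGFA, PIM1, NOG, TUBE1, ENPP2 and JAG1 were lost without any 1 library of guide 3 or guide 5, those of VEGFA, PIM1, NOG and JAG1 also without control replicate 1 and those of NOG and JAG1 without control replicate 3.

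Counts of the inflammatory, replication, lipid and p53 lists, here and in the next paragraph, stand against 12.4% of all tested genes that rose and 7.42% that fell. Of 18 tested mRNAs with inflammatory AU-rich elements, 15 rose and 0 fell against control (median 1.57), among them IL1B, from 0.370, 0.713 and 0.355 to 7.39 and 8.27 FPKM, and TNF, from 21.7, 39.5 and 32.0 to 55.3 and 50.9. Of the 18, 5 were below 1 FPKM in every control, and with no filter 16 of 20 rose by voom. Of 20 tested immediate early genes 13 rose, of 12 NF-kappa-B genes 5, of 22 lysosomal genes 11 and of 18 MHC class I genes 7, with 1 MHC class I gene that fell. Of 30 DNA replication and S phase genes 8 fell and 0 rose (median -0.47), among them MCM4 (-0.89) and GINS2 (-0.85). Of 24 mitotic genes limma called 0 in either direction, with a median of -0.30 (6 fell at an unadjusted p below 0.05, and by voom on all genes 1). Of 28 MYC and ribosome biogenesis genes 5 fell, among them NPM1 (-0.60). Medians of guide 3 minus control had the same signs as those of guide 5. They were 1.59 for AU-rich mRNAs, 0.74 for immediate early, 0.77 for NF-kappa-B, 1.03 for lysosomal and 0.58 for MHC class I genes. For replication, mitotic and MYC genes they were -0.69, -0.70 and -0.50.

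Of 22 cholesterol and fatty acid synthesis genes 2 rose and 5 fell, and all 22 differences from guide 3 were negative, with a median of -0.43, of which limma called 0 (9 at an unadjusted p below 0.05) and voom 0. With the GC and length correction this median was -0.36 and limma called 1 lower. HMGCS1, an early enzyme of cholesterol synthesis, stood at 7.08, 7.12 and 5.71 FPKM in the controls, 5.07 and 5.43 with guide 3 and 3.20 and 3.74 with guide 5 (-0.84 ± 0.18 against control, adjusted p = 0.0087). SREBF1, a transcription factor of lipid synthesis, rose by 1.03. Of 18 p53 target genes 6 rose, among them the cell cycle inhibitor CDKN1A (2.04), and 2 fell.

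**Figure D5:**
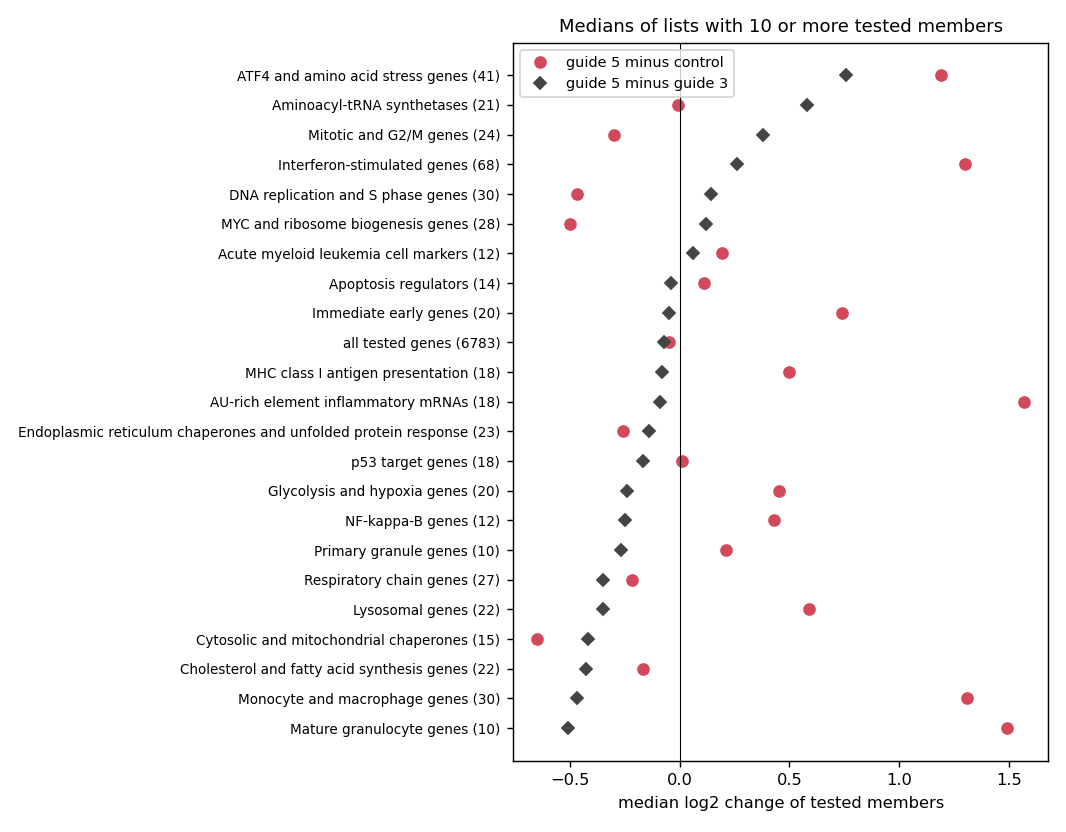
Median log2 change of tested members for lists with 10 or more of them (number in brackets) and for all 6783 tested genes, with circles for guide 5 minus control and diamonds for guide 5 minus guide 3. The 2 sets of medians share the guide 5 libraries. The ATF4 list has the highest diamond at 0.76, and the AU-rich list has the circle farthest right at 1.57.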

How the data were processed

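Per the labels' protocols, poly(A) RNA of MOLM13 cells was made into directional libraries and sequenced single-end. The submitters' processing notes name the builds hg38 and GRCh38.p7 and the tools limma, edgeR, HTSeq and STAR 2.5.3. Their roles and the strand setting are not given in the sources used here. The authors deposited FPKM per library and a table with a log2 fold change and a false discovery rate, an adjusted p-value, of each guide over control and mean CPM of groups. Of 11581 rows 173 without FPKM were left out. Mean CPM over FPKM gave whole bases (within 0.01), with a median of 30113.5, equal to GENCODE 29 gene spans for 8064 genes, so long genes have low FPKM. Whole reads (within 0.01) were recovered for 100% of values in every library. Voom on these reads kept the library size factors built into the FPKM. Reads carry no molecular identifiers.

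limma 3.58.1 in R 4.3.3 was fitted to log2(FPKM + 0.5) with 3 group means and a trended prior (degrees of freedom 4 residual, 6.21 prior), two-sided. Other steps used Python 3.11.15, pandas 2.3.3, numpy 2.4.6, scipy 1.17.1 and matplotlib 3.10.9. The procedure was tested on simulated data. Genes and lists were chosen with earlier results of these data known. Named genes are the ZFP36 family, the 12 highest and 12 lowest called genes of each comparison, up to 8 members of each list for the change from control and up to 4 for the difference between guides, and fixed interferon and stress genes. Not all list members that the rule allows are printed, and some genes it names are not reported here. All other genes named were chosen after their values were seen. Alternatives were other pseudocounts, filters, scalings, a GC and length correction, a replicate block, other variance settings, voom on recovered reads and each library left out. Added after the data were examined were voom on all genes and a block with exchanged numbers.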

Additional observations from a re-analysis of the deposited data

Results flagged for a closer look

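The genes below differed between the guides by the direct test of guide 5 against guide 3, which compares both changes from the shared controls. The values are log2 differences on the FPKM + 0.5 scale, for the 12 highest and 12 lowest of the called genes. Higher with guide 5 were DDIT4 (2.81), STC2 (2.57), CHAC1 (2.55), ADM2 (2.16), CTD-2529O21.1 (1.97, overlapping TBC1D16 on the same strand), TRIB3 (1.91), PSAT1 (1.66), CTH (1.62), TUBE1 (1.54), ALDH1L2 (1.5), GPT2 (1.49) and VEGFA (1.46). Of these 12 genes 9 belong to the ATF4 and amino acid stress list. Lower with guide 5 were S100A9 (-2.17), S100A12 (-2.09), S100A8 (-1.91), FCN1 (-1.56), RNASE1 (-1.46), NOL5BP (-1.39), HK3 (-1.36), DES (-1.16), LILRP1 (-1.15), SLC9A7P1 (-1.13), RPL7AP64 (-1.12) and MMP25 (-1.07). LILRP1, SLC9A7P1, RPL7AP64 and NOL5BP are pseudogenes, whose reads may come from a near-identical copy. RPL7AP64 had 3 reads in the controls together.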

How the results depend on the processing

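With a mean FPKM of at least 5, 283 genes rose and 158 fell against control, 5 were higher and 4 lower than with guide 3, and 4 and 0 were called up and down against both. The list counts were then 16 ATF4, 11 interferon and 11 monocyte genes that rose, and 3 ATF4 and 0 interferon genes higher than with guide 3. Fewer genes were tested there. Library weights gave 1483 rises and 1126 falls, 333 higher and 895 lower, 122 up and 94 down against both, and 32 ATF4 and 26 interferon genes higher and 18 monocyte genes lower than with guide 3. The compared groups alone gave 180 falls, 247 higher and 620 lower, 71 up and 20 down against both, and 30 ATF4 and 18 interferon genes higher and 15 monocyte genes lower. The replicate block gave 1056 falls, 73 higher and 123 lower, 49 up and 7 down against both, 12 interferon genes higher and 8 monocyte genes lower. Deviations of same-numbered guide 5 libraries from the group means correlated at -0.13 and 0.44 with the controls and at -0.57 with guide 3. With 2 libraries per guide these deviations mirror each other, so the correlations cannot show whether the numbers pair samples. With the numbers of guide 3 exchanged in the block, added after seeing the data, 1296 fell, 19 were higher and 8 lower, 18 and 0 were called against both and 3 interferon genes were higher. Falls against control numbered 1031 with quantile normalization, 996 with a common sum, 1142 with the GC and length correction and 951 by voom on all genes, where 1452 rose. Higher than with guide 3 were 49 without a filter, 55 with quantile normalization, 59 with a common sum, 83 with the GC and length correction and 51 by voom on all genes. Lower were 11 with a pseudocount of 0.1, 48 without a filter, 37 with quantile normalization, 10 with a common sum and 7 by voom. Called against both, up and down, were 47 and 3 without a filter, 46 and 0 with a common sum, and 61 and 2 with the GC and length correction, and down 3 with quantile normalization, 0 by voom and 0 by voom on all genes. With a common sum the median of all tested genes was -0.11 against control and 0.13 against guide 3. Leaving out each library in turn gave 325 to 1236 rises and 28 to 998 falls, 4 to 88 higher and 2 to 128 lower, 4 to 63 up and 0 to 20 down against both. For the lists it gave 16 to 33 ATF4, 32 to 56 interferon and 16 to 25 monocyte genes that rose, 4 to 23 ATF4 and 0 to 9 interferon genes higher and 1 to 8 monocyte genes lower. With quantile normalization DES, SLC9A7P1 and NFAM1 had changes of -0.03, -0.06 and -0.0023 from control, in place of rises. The causes were not tested. Because the 3 groups share 1 estimate of the spread, leaving out a library of guide 3 also changes the comparison with control. Depth limits genes with few reads in the controls, where folds carry wide counting intervals.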
